A study of Mus musculus with 4 samples.

Results

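Cyclins, cyclin-dependent kinases (CDKs) and mitotic kinases were measured in testis RNA of mice with and without the taste receptor subunit gene Tas1r3. The genes were chosen by symbol: lettered cyclins (Ccn genes) other than Ccnl2, numbered Cdk genes, the Cdc25 phosphatases, the Polo-like (Plk) and Aurora (Aurk) kinases, and the small CDK subunits Cks1b and Cks2. The pattern matched 55 gene symbols among the 17934 genes of the tables. All 55 had a mean of at least 1 CPM (counts per 1000000 assigned reads) and so were among the 17654 genes tested. The animals were male C57BL/6 mice that ate a western diet over 18 weeks. They were either wild type (WT) or Tas1r3 knockout (KO), and the labels give neither the allele nor their age. Each genotype has 2 libraries, and the labels do not state whether these are different mice; a p-value here then covers only the spread between the samples, which may be technical. All groups shared the diet, so no result bears on the diet itself.

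Cyclins are regulatory subunits that switch CDKs on, and Cdc25 phosphatases remove the phosphates by which CDKs are held inactive. Polo-like and Aurora kinases act downstream and beside them on centrosomes, spindle and chromosomes. In testis the same machinery runs the mitoses of spermatogonia and the meiotic divisions of spermatocytes, for which germ cells also use their own forms, such as cyclin A1 and Aurora kinase C. A second branch of the family, with cyclins C, H, K, L and T, acts mainly on RNA polymerase II, and its cyclin H with Cdk7 also activates the CDKs of cell division.

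Depth was estimated from the value of 1 read in each library. For replicates 1 and 2 it came to 1719356 and 1807694 assigned reads (WT) and to 748638 and 597937 (KO), a mean depth 2.62 times greater in WT. Across all genes tested, on log2(CPM + 1), the WT libraries correlated at 0.963 and the KO libraries at 0.910, lower than any correlation across genotypes (0.928 to 0.941). Genes are not independent replicates. Tas1r3 itself had 13.8 and 20.5 CPM in the WT libraries against 1.34 and 0 CPM in the KO libraries, which is 61 estimated reads against 1. Markers of germ cells marked the tissue as testis: 6 genes of elongating spermatids summed to 26973 and 26795 CPM in WT and to 22845 and 33721 CPM in KO replicates 1 and 2. The other lists summed, in the same order, to 128, 116, 147 and 148 CPM for spermatogonia, 1075, 1038, 1309 and 1125 CPM for spermatocytes, and 2294, 2169, 2173 and 2554 CPM for round spermatids. The 7 spermatogonia genes did not move together. Both KO libraries lay above both WT libraries for 3 (15.1% of all genes) and below for 2 (19.2%). Of the latter, Sall4 had 12.1 and 7.15 CPM in WT and 0 estimated reads in both KO libraries. It did not pass (log2 fold change -3.37, SE 0.65; limma, BH-adjusted p = 0.95). Sertoli cell genes summed to 1351, 1370.5, 1442 and 1173 CPM and Leydig cell genes to 1691, 1817, 1544 and 1587 CPM. Insl3 gave 1517, 1464, 1234 and 1278 CPM of the Leydig sum, and Cyp17a1 gave 46.5, 129, 135 and 127 CPM. Macrophage genes gave 31.3, 32.3, 22 and 36.9 CPM, red blood cell genes 47.8, 186, 35.8 and 53.9 CPM, and epididymis genes 40.7, 4.85, 5.21 and 6.80 CPM, where Crisp1 gave all of the first value. In whole testis, fewer cells of a type and less RNA per cell cannot be told apart.

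No cyclin, CDK or mitotic kinase gene passed the test between genotypes. Of the 55 genes, 0 were called (limma, Benjamini-Hochberg (BH) adjusted p from 0.95 to 0.999), where over all genes 1 of 17654, Ptchd3, was called (0.00566%). At an unadjusted p under 0.05 by limma stood 3 of the 55 (5.45%), against 4.33% of all genes. Lower in KO among them were 2, Plk1 and Cdk14, against 3.01% of all genes, and higher was 1, the transcription elongation cyclin Ccnt1, against 1.33%. The genotypes were parted without overlap for 17 of the 55 (30.9%), against 34.3% of all genes. Both KO libraries lay above both WT libraries for 7 (12.7%, against 15.1% of all genes), and below both for 10 (18.2%, against 19.2%). These shares are near those of all genes.

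The summed level of the family differed between genotypes by less than the KO libraries differed from each other. Its 55 genes summed to 2734 and 2709 CPM in WT and to 2845 and 2545 CPM in KO, a KO mean of 0.990 times the WT mean. The KO libraries lay on either side of both WT libraries. Of the 55, the mean log2 value was higher in KO for 26 (47.3%, against 44.9% of all genes) and lower for 29. The median log2 fold change was -0.04, the same as over all genes. Fold changes are KO minus WT on the log2(CPM + 1) scale, which understates the change of low genes. The median absolute difference between libraries of a genotype was 0.20 for WT and 0.28 for KO on this scale, and the median absolute fold change was 0.22. Over all genes these were 0.26, 0.44 and 0.25. A fold change compares means of 2 libraries and the other values compare single libraries, so their sizes cannot be set directly against each other.

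**Figure D1:**
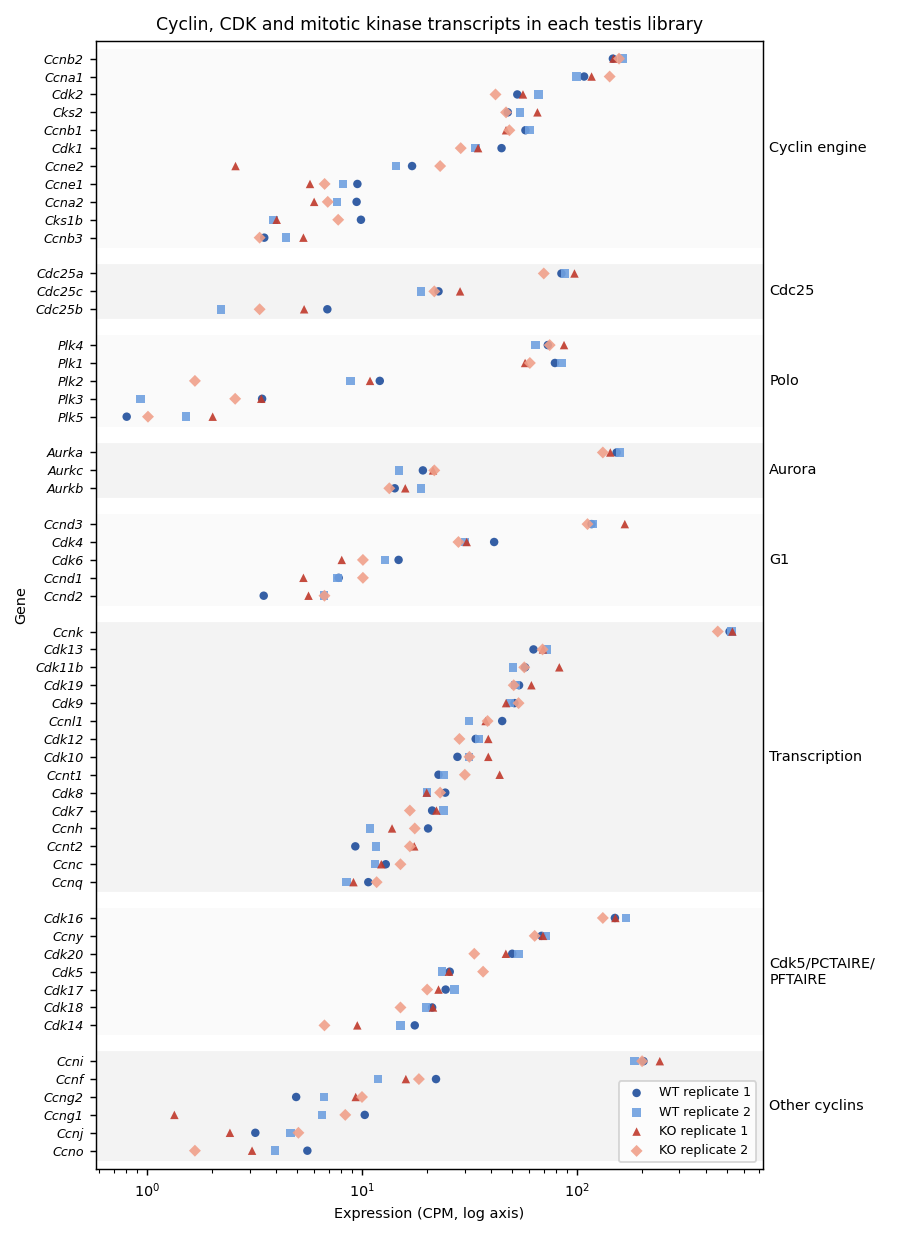
Level of each of the 55 genes in CPM (horizontal log axis) in the 4 libraries, with genes (vertical axis) grouped by role and ordered by mean level. Points of WT and KO intermingle for most genes; Plk1 and Cdk14 show both KO points to the left of both WT points, and Ccnt1 and Ccnt2 show both to the right.

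Among the cyclins, CDKs and Cks subunits that drive S phase and the mitotic and meiotic divisions, 0 of 11 passed. The mean log2 value was higher in KO for 3 and lower for 8, where 44.9% of all genes were higher. The median log2 fold change was -0.28, beside -0.04 over all genes. Ccnb2, encoding a B-type cyclin that activates Cdk1 at entry into division, had 147 and 163 CPM in the WT libraries against 148 and 157 CPM in the KO libraries. The genotypes overlapped, and the 95% interval of the log2 fold change, -0.36 to 0.32, was among the narrowest of the family. Ccnb1, the other main mitotic cyclin gene, had 57.6 and 60.3 CPM in the WT libraries against 46.8 and 48.5 CPM in the KO libraries. Both KO libraries lay below both WT libraries (log2 fold change -0.30, SE 0.19; limma, BH-adjusted p = 0.95). Ccna1, the cyclin A gene of male meiosis, had 108 and 99.4 CPM in the WT libraries against 117 and 142 CPM in the KO libraries. Here both KO libraries were the higher ones (log2 fold change 0.32, SE 0.17; limma, BH-adjusted p = 0.95), and 5 of the 9 spermatocyte markers, with 0 of 9 the other way, likewise had both KO libraries above both WT, beside 15.1% of all genes above and 19.2% below. The part of spermatocyte content in the Ccna1 values was not tested.

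Cdk2, the kinase of cyclins E and A that is also needed in meiotic prophase, had 52.8 and 66.2 CPM in the WT libraries against 56.1 and 41.8 CPM in the KO libraries. Its libraries overlapped. Cks2, a CDK subunit required for the first meiotic division, had 47.7 and 54.2 CPM in the WT libraries against 65.5 and 46.8 CPM in the KO libraries, with the KO libraries on either side. The remaining 6 genes of this class, Ccna2, Ccnb3, Ccne1, Ccne2, Cdk1 and Cks1b, had log2 fold changes from -0.84 to 0.09. Cdk1, the kinase of the B cyclins, had 44.6 and 33.7 CPM in the WT libraries against 34.7 and 28.8 CPM in the KO libraries, and its highest KO value exceeded its lowest WT value. Ccne2, a cyclin E gene chosen here after its values were seen, had 17.1 and 14.4 CPM in WT but 2.58 and 23.1 CPM in KO. These correspond to 1.9 and 13.8 estimated reads in the KO libraries, and Ccne2 overlaps the oppositely transcribed gene Ints8 by 5623 bases. The sources used here do not say whether the counting used strand. In all, 8 of the 55 genes overlap another listed gene on the opposite strand, Ccna2, Ccnc, Ccnd1, Ccnd3, Ccnt1, Cdk7 and Cdk10 being the others, and their reads may include some of that partner.

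Levels can be set beside each other between genes only per length, as CPM per kilobase of listed transcript. Each transcript was divided by its own length before summing. For genes with several transcripts the value therefore depends on how reads were divided among them. On that scale Ccnb2, at 95.5 and 106 in WT and 96.2 and 102 in KO, stood highest in the class and second in the family. Cks2, with a mean of 77.1, and Ccna1, with 74.3, followed. The germline cyclin Ccna1 exceeded the somatic Ccna2 by 24.6 and 27.9 times in the WT libraries and by 42.2 and 44.0 times in the KO libraries. Only 4.5 and 4.1 estimated reads of Ccna2 stand behind the KO values, so that ratio is imprecise, and the pair was chosen after the values were seen. Ccnb2 exceeded Ccnb1 by 3.84 and 4.06 times in WT and by 4.76 and 4.85 times in KO.

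Each mitotic kinase family held genes on both sides. Plk1, the Polo-like kinase of mitotic entry, spindle and cytokinesis, had 79.0 and 84.8 CPM in the WT libraries against 57.4 and 60.4 CPM in the KO libraries. The libraries of each genotype lay close together and the genotypes did not overlap. Its mean was 1.39-fold lower in KO (81.9 ± 4.11 and 58.9 ± 2.11 CPM, SD, n = 2; log2 fold change -0.47, SE 0.18). It had the smallest unadjusted p of the 55 by limma, 0.0283, and did not pass (limma, BH-adjusted p = 0.95). Its estimated reads were 289 for WT and 79 for KO, a depth-scaled ratio of 0.716 with a 95% exact conditional interval from 0.551 to 0.921. This interval pools both libraries of a genotype, takes reads as independent molecules and covers counting error only, so it is no test of genotype.

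Plk4, the kinase of centriole duplication, had 73.2 and 64.2 CPM in the WT libraries against 87.1 and 74.7 CPM in the KO libraries. Both KO libraries were above both WT libraries, by little in replicate 2 (log2 fold change 0.23, SE 0.19). Per kilobase Plk1 stood 1.72 and 2.11 times above Plk4 in WT and 1.05 and 1.29 times above it in KO. Plk2, a stress-responsive family member, had 12.1 and 8.85 CPM in the WT libraries against 10.9 and 1.67 CPM in the KO libraries. The lowest value is a single estimated read, and the other KO library lay between the WT values. Plk3, another such gene, had 3.43 and 0.934 CPM in the WT libraries against 3.40 and 2.57 CPM in the KO libraries, from at most 5.9 estimated reads in any library. Plk5, whose product lacks a working kinase domain, was the lowest of the family per kilobase, at 4 estimated reads for WT and 2 for KO. That gives a ratio of 1.31 whose interval, from 0.118 to 9.14, leaves a difference not detectable at this depth.

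Of the Aurora kinases, Aurka, which acts at spindle poles, had 153 and 159 CPM in the WT libraries against 143 and 132 CPM in the KO libraries. Both KO libraries lay below (log2 fold change -0.18, SE 0.15; 95% interval -0.52 to 0.16). Aurkb, of the chromosomal passenger complex, had 14.2 and 18.8 CPM in the WT libraries against 15.9 and 13.4 CPM in the KO libraries, and the genotypes overlapped. Aurkc, its germ cell relative, had 19.2 and 14.9 CPM in the WT libraries against 21.4 and 21.7 CPM in the KO libraries, the higher of the genotypes by a small step (log2 fold change 0.33, SE 0.29). Aurkb and Aurkc are close paralogs, so reads from shared sequence can be divided between them. Per kilobase Aurka exceeded Aurkb by 8.64 to 11.2 times across the 4 libraries, and Aurkc exceeded Aurkb by 1.21 to 2.34 times.

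The Cdc25 phosphatases, activators of CDKs, overlapped between genotypes in all 3 genes. Cdc25a had 84.7 and 88.0 CPM in the WT libraries against 97.4 and 70.1 CPM in the KO libraries, where the KO libraries lay outside the WT pair on both sides. Cdc25c, the form first described for mitotic entry, had 22.7 and 18.8 CPM in the WT libraries against 28.6 and 21.7 CPM in the KO libraries. Cdc25b had 6.90 and 2.21 CPM in the WT libraries against 5.38 and 3.34 CPM in the KO libraries, from 16 and 6 estimated reads.

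The promoters of 5 genes of division are shown because Plk1, Aurka and Ccnb1 were lower in both KO libraries, Ccnb2 overlapped between genotypes and Ccna1 was higher in both. The windows run from 250 bases before to 50 bases after the transcription start, 5′ to 3′ on the gene's strand, and come from RefSeq on GRCm38.p6, an older build than the mm39 of the expression tables. They are Plk1 at chr7:122159185-122159484 (plus strand), Aurka at chr2:172370521-172370820 (minus), Ccnb1 at chr13:100786437-100786736 (minus), Ccnb2 at chr9:70421505-70421804 (minus) and Ccna1 at chr3:55055006-55055305 (minus). Capitals mark CCAAT, the box bound by NF-Y, and TTTGAA, the cell cycle homology element of many late cell cycle promoters, both searched on either strand (CCAAT on the other strand reads ATTGG).
Plk1: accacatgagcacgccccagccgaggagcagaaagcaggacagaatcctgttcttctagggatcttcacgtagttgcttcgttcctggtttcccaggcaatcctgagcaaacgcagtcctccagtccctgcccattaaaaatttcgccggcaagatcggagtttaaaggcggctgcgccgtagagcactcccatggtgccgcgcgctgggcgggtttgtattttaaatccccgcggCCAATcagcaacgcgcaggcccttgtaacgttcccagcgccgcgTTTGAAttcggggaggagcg
Aurka: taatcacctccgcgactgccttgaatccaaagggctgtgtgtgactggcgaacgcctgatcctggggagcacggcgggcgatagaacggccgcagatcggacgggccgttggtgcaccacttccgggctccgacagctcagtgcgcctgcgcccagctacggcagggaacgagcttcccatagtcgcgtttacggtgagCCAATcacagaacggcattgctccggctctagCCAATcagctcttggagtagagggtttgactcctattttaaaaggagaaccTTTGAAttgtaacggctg
Ccnb1: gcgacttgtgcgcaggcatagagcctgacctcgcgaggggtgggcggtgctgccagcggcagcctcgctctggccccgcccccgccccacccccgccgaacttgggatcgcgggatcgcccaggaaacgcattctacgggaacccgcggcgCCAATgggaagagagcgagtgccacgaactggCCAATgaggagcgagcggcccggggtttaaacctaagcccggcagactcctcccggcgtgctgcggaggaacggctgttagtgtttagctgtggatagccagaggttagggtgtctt
Ccnb2: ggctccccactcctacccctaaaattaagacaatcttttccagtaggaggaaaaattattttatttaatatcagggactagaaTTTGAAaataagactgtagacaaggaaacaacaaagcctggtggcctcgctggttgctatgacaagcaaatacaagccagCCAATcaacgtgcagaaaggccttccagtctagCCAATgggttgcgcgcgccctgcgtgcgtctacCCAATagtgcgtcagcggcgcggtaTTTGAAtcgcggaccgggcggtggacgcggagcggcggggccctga
Ccna1: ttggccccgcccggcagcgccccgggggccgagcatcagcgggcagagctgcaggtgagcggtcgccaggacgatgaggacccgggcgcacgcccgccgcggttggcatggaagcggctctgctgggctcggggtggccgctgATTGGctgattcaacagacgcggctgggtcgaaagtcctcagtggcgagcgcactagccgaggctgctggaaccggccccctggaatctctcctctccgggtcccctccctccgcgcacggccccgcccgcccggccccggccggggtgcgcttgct
Plk1 holds CCAAT starting 14 bases before the start and TTTGAA from base 31 after it. Aurka has the same order, with CCAAT at 51 and 19 bases before and TTTGAA from base 33 after the start. Ccnb2 carries 3 CCAAT boxes and 2 TTTGAA. Ccnb1 has 2 CCAAT boxes and no TTTGAA in its window, and Ccna1 has 1 CCAAT on the other strand and no TTTGAA. Only this exact spelling was searched, so a window without it may still hold another form of the element. Windows were found for 44 of the 55 genes, 46 windows in all. CCAAT lay in 52.2% of them, against 37.4% of all 32851 windows, and TTTGAA in 17.4% against 17.9%. Both were present in 15.2% against 7.0%, and GGGCGG, a GC box, in 80.4% against 35.7%. A match is a description of letters and not of binding.

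**Figure D2:**
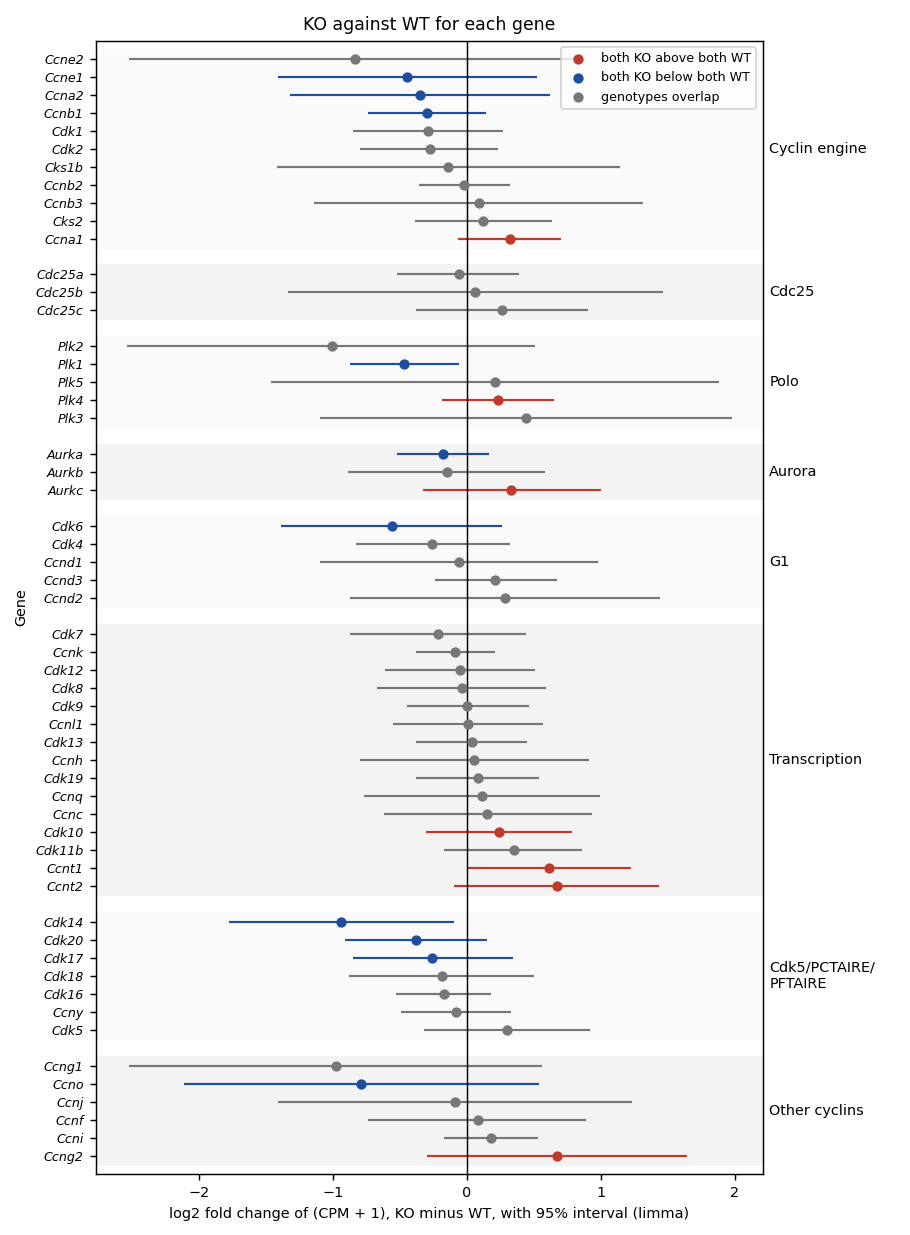
Log2 fold change of (CPM + 1), KO minus WT (horizontal axis), with its 95% interval from limma for each of the 55 genes (vertical axis, grouped by role). Red marks the 7 genes with both KO libraries above both WT libraries, blue the 10 with both below, and grey the genes that overlap; the intervals of Plk1, Cdk14 and Ccnt1 leave out 0 and those of the other 52 genes include it.

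Among the G1 genes, D-type cyclins and the kinases that phosphorylate the retinoblastoma protein, 0 of 5 passed and the median log2 fold change was -0.06. Ccnd3 had 117 and 119 CPM in the WT libraries against 167 and 112 CPM in the KO libraries. Only KO replicate 1 was high, and without KO replicate 1 the log2 fold change was -0.07 in place of 0.21. Cdk4 had 41.2 and 30.1 CPM in the WT libraries against 30.7 and 28.1 CPM in the KO libraries, an overlap. Cdk6, its close relative, had 14.8 and 12.8 CPM in the WT libraries against 8.05 and 10.1 CPM in the KO libraries, where both KO libraries were lower (log2 fold change -0.56, SE 0.37) on 6 estimated reads in each. Ccnd1 had 7.79 and 7.69 CPM in the WT libraries against 5.34 and 10.1 CPM in the KO libraries, so the KO libraries enclosed the WT pair. Per kilobase Ccnd3 exceeded Ccnd1 by 21.0 to 58.5 times and Ccnd2 by 48.9 to 97.6 times. Cdk4 exceeded Cdk6 by 19.7 to 31.3 times on the same scale.

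The branch that acts on transcription and RNA processing was the largest class and held the most abundant transcript. Of its 15 genes 0 passed, and the median log2 fold change was 0.05. The mean log2 value was higher in KO for 11 and lower for 4, where 44.9% of all genes were higher. Both KO libraries lay above both WT libraries for 3 of the 15, Ccnt1, Ccnt2 and Cdk10 (15.1% of all genes), and below for 0 (19.2% of all genes). Ccnk, the cyclin of Cdk12 and Cdk13, had 513 and 524 CPM in the WT libraries against 529 and 452 CPM in the KO libraries. Resting on 1831 estimated reads (WT) and 666 (KO), it was the best measured gene of the family, and its 95% interval on the log2 scale ran from -0.38 to 0.21. Per kilobase it stood first of the 55, at 195 and 199 in WT and 201 and 172 in KO, 30.4 to 35.3 times the level of its partner Cdk12. The Cdk12 transcripts run from 4846 to 7669 bases. The shortest held 43.1% to 84.0% of that gene's CPM, and this division enters the ratio.

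Ccnt1 and Ccnt2 encode the alternative cyclins of Cdk9 in P-TEFb, the kinase that releases paused RNA polymerase II. Ccnt1 had 22.7 and 24.1 CPM in the WT libraries against 43.7 and 30.1 CPM in the KO libraries, a 1.58-fold higher mean (23.4 ± 0.960 and 36.9 ± 9.57 CPM, SD, n = 2; log2 fold change 0.61, SE 0.27). Its unadjusted p by limma was 0.0486 and it did not pass (limma, BH-adjusted p = 0.95). Ccnt1 overlaps the oppositely transcribed 9330020H09Rik by 414 bases, and that gene had 9.78 and 15.4 CPM in the WT libraries against 8.51 and 15.1 CPM in the KO libraries. Ccnt2 had 9.31 and 11.6 CPM in the WT libraries against 17.5 and 16.7 CPM in the KO libraries, a 1.63-fold higher mean (log2 fold change 0.67, SE 0.34; limma, BH-adjusted p = 0.95). Both KO libraries were above both WT libraries for each of these cyclins, while their kinase Cdk9 had 51.2 and 48.7 CPM in the WT libraries against 46.8 and 53.5 CPM in the KO libraries, enclosing the WT pair. Neither cyclin passed, and Cdk9 was chosen for its partners' values.

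Cdk11b, a kinase of splicing, had 57.4 and 50.4 CPM in the WT libraries against 82.8 and 56.9 CPM in the KO libraries, with KO replicate 1 high and KO replicate 2 within the WT range. It lies at chromosome 4, 155709311 to 155734392 on mm39, 209 kb from Tas1r3. The other 3 genes of the family on chromosome 4 are Ccnc, Ccne2 and Plk3, which lie at least 38953 kb away. Sequence carried along with the targeted allele and loss of Tas1r3 cannot be told apart for Cdk11b. Cdk13 had 62.8 and 72.6 CPM in the WT libraries against 69.5 and 69.2 CPM in the KO libraries, and Cdk19, of the Mediator kinase module, had 53.8 and 51.8 CPM in the WT libraries against 61.4 and 50.8 CPM in the KO libraries. Both overlapped between genotypes. The other 9 genes of the class, which are Cdk9, Ccnl1, Cdk12, Cdk10, Cdk8, Cdk7, Ccnh, Ccnc and Ccnq, had log2 fold changes from -0.22 to 0.24.

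In the class of Cdk5, Cdk20, the PCTAIRE and PFTAIRE kinases and the latter's cyclin gene Ccny, 0 of 7 passed. Their median log2 fold change was -0.19, the mean log2 value was lower in KO for 6 of 7 (9732 of 17654 over all genes), and their sum was 357 and 379.5 CPM in the WT libraries against 346 and 307 CPM in the KO libraries. Relative to the WT mean in log2(CPM + 1), the 6 genes other than Cdk14 lay between -0.17 and 0.06 in KO replicate 1 and between -0.62 and 0.56 in KO replicate 2. Cdk14, a PFTAIRE kinase of the plasma membrane that works with cyclin Y, had 17.6 and 15.1 CPM in the WT libraries against 9.51 and 6.69 CPM in the KO libraries. Its mean was 2.02-fold lower in KO (16.3 ± 1.79 and 8.10 ± 1.99 CPM, SD, n = 2; log2 fold change -0.94, SE 0.37; limma, BH-adjusted p = 0.95). The KO values rest on 7.1 and 4.0 estimated reads, and the ratio of reads, 0.505, had a counting interval from 0.239 to 0.974. Cdk16, a PCTAIRE kinase needed for sperm formation, had 150.2 and 169 CPM in the WT libraries against 151 and 132 CPM in the KO libraries. Ccny had 68.4 and 71.8 CPM in the WT libraries against 69.5 and 63.6 CPM in the KO libraries. Both overlapped, and each stood near its WT level in KO replicate 1 and below it in KO replicate 2. Cdk20, a kinase tied to cilia, had 50 and 53.4 CPM in the WT libraries against 46.7 and 33.3 CPM in the KO libraries, the lower value again in replicate 2 (log2 fold change -0.38, SE 0.23). Cdk5 had 25.6 and 23.5 CPM in the WT libraries against 25.4 and 36.6 CPM in the KO libraries. Cdk17 and Cdk18 had log2 fold changes of -0.26 and -0.19.

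The remaining cyclins are a loose group of 6, of which 0 passed, with a median log2 fold change of -0.01. Ccni, whose product is abundant in postmitotic cells, had 204 and 185 CPM in the WT libraries against 243 and 201 CPM in the KO libraries, an overlap. Ccnf, an F-box protein gene, had 22.1 and 11.9 CPM in the WT libraries against 16.0 and 18.4 CPM in the KO libraries, within the WT range. Ccng1, a p53 target, had 10.3 and 6.50 CPM in the WT libraries against 1.34 and 8.36 CPM in the KO libraries, where the low value is 1 estimated read. Ccng2 had 4.94 and 6.64 CPM in the WT libraries against 9.35 and 10 CPM in the KO libraries, both KO libraries above (log2 fold change 0.67, SE 0.43) on 7 and 6 estimated reads. Ccno, known for its role in multiciliated cells, had 5.57 and 3.94 CPM in the WT libraries against 3.08 and 1.67 CPM in the KO libraries. From 17 estimated reads for WT and 3 for KO its ratio was 0.462, and the interval from 0.0868 to 1.60 includes no difference. Ccnj was covered by 14 WT and 5 KO estimated reads.

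**Figure D3:**
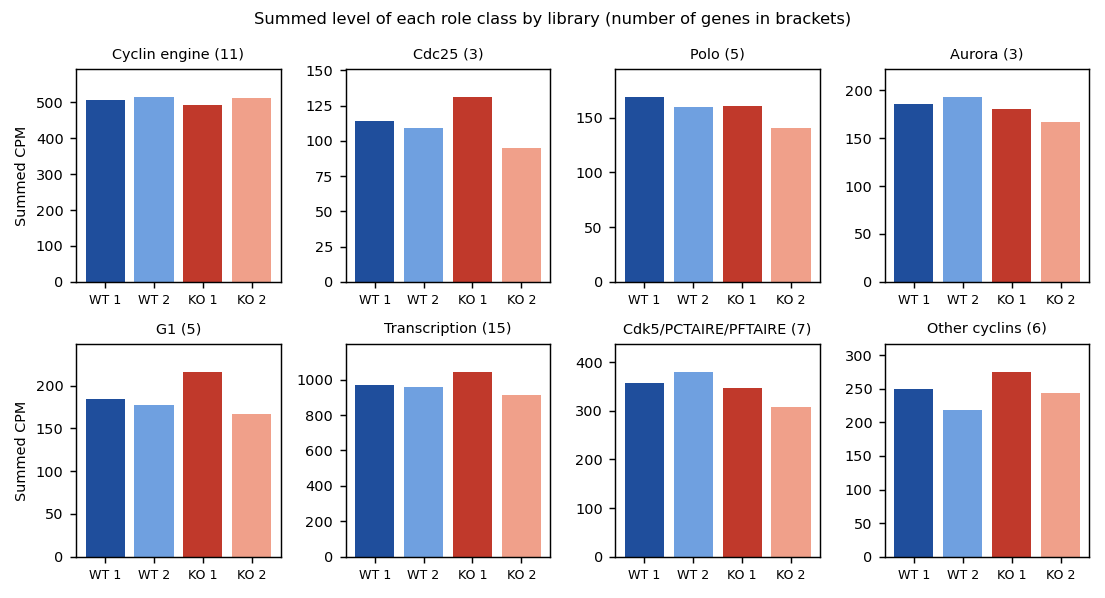
Summed CPM (vertical axis, from 0) of each role class in the 4 libraries (horizontal axis), 1 bar a library, with the number of genes in brackets. The KO bars of the G1, Cdc25 and transcription classes lie on either side of the WT bars, and the Aurora and Cdk5, PCTAIRE and PFTAIRE classes have both KO bars below both WT bars.

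The KO libraries differed from each other in single genes. KO replicate 1 exceeded KO replicate 2 for 32 of the 55 (58.2%, against 50.9% of all genes), and WT replicate 1 exceeded WT replicate 2 for 30 (54.5%, against 53.7%). Relative to the WT mean on the log2(CPM + 1) scale, 15 genes were above and 17 below in both KO libraries, and 23 lay on opposite sides. Ccne2 was at -2.22 in KO replicate 1 and 0.53 in KO replicate 2, Ccng1 at -1.98 and 0.02, and Plk2 at 0.07 and -2.09. These are genes with 16, 6 and 9 summed estimated reads in KO. In all, 12 of the 55 had under 10 summed reads in KO, 21 had under 10 in a KO library, and the median was 29.0 in KO and 80.0 in WT. Leaving out KO replicate 1 gave 1 call in the family, Plk2 (limma, BH-adjusted p = 0.00702), against 5.40% of all genes called. Leaving out KO replicate 2 gave 2, Ccne2 (limma, BH-adjusted p = 0.00102) and Ccng1 (0.0351), against 2.34% of all genes. In each of these fits the spread comes from the WT libraries alone, and the lone KO library is assumed to vary likewise. With the replicate number as a block, 0 of the family were called, against 0.136% of all genes.

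**Figure D4:**
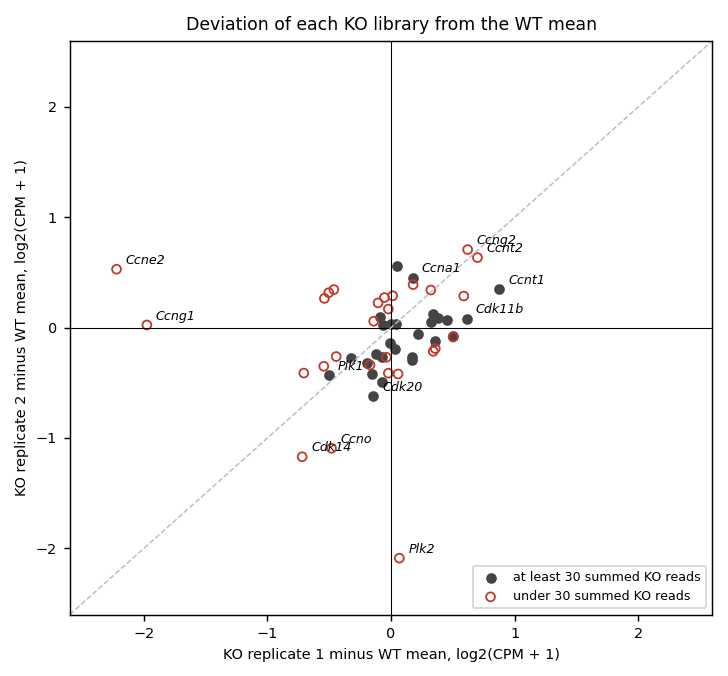
Difference of KO replicate 1 (horizontal axis) and KO replicate 2 (vertical axis) from the WT mean, in log2(CPM + 1), 1 point a gene. Filled points have at least 30 summed estimated reads in KO (27 genes), open points fewer; Ccne2, Ccng1 and Plk2 are far from 0 in only 1 KO library and are open points, and the dashed line marks equal values.

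Transcripts of a gene were not separated reliably. Of the 55 genes, 23 have several listed transcripts, and the leading one was the same in all 4 libraries for 5 of them. It differed between the WT libraries for 11 and between the KO libraries for 10. Ccnd3 was steady, with the transcript of 1979 bases at 96.7% to 99.7% of the gene. For Cdk2 the transcript of 2432 bases had 47.9 and 59.5 CPM in the WT libraries against 56.1 and 41.8 CPM in the KO libraries. The shorter one of 2288 bases had 8.5 and 12.1 estimated reads in WT and 0 in both KO libraries. These genes were chosen after their values were seen, and the division of reads among transcripts is an estimate, so no transcript was tested.

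Other genes of cell cycle control were taken from 6 lists. Among those outside the family, 0 of 74 tested genes passed (limma, BH over all genes), 2 of 74 had an unadjusted p under 0.05 by limma, against 4.33% of all genes, and the median log2 fold change was -0.04. Of 10 CDK inhibitors and inhibitory kinases 0 passed. Cdkn2c, an inhibitor of Cdk4 and Cdk6, had 135 and 130 CPM in the WT libraries against 132 and 71.9 CPM in the KO libraries, and Cdkn2d, of the same kind, had 69.1 and 84.0 CPM in the WT libraries against 68.1 and 60.0 CPM in the KO libraries. Of 18 activators and partners 0 passed. Cables1, a CDK-binding adaptor gene, was covered by 21 WT and 1 KO estimated reads (unadjusted p by limma 0.0173), and Cdk5r1, the activator of Cdk5, had 1.88 and 2.83 CPM in the WT libraries against 6.20 and 6.77 CPM in the KO libraries. The retinoblastoma and E2F family had 0 of 13 called, with Rbl2 at 102 and 102 CPM in the WT libraries against 106 and 133 CPM in the KO libraries, and E2f5 at 11.2 and 10.1 CPM and 16.0 and 13.4 CPM.

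Of 18 genes of the anaphase promoting complex, which marks cyclins for destruction, 0 passed. Its meiotic inhibitor gene Fbxo43 had 20.1 and 14.4 CPM in the WT libraries against 22.7 and 33.4 CPM in the KO libraries, and the subunit gene Anapc4 had 22.8 and 26.0 CPM in the WT libraries against 17.4 and 15.1 CPM in the KO libraries. Of 9 spindle checkpoint genes 0 passed. Both KO libraries lay below both WT libraries for 4 of them and above for 1, where all genes gave 19.2% and 15.1%. Mad2l2, which also encodes a subunit of a translesion DNA polymerase, had 173 and 180.3 CPM in the WT libraries against 151 and 120.2 CPM in the KO libraries (unadjusted p by limma 0.0422), and the checkpoint kinase gene Bub1b had 68.0 and 60.3 CPM in the WT libraries against 58.5 and 41.4 CPM in the KO libraries. Of 6 genes of SCF ubiquitin ligases 0 passed. Skp1 had 122 and 124 CPM in the WT libraries against 149.6 and 152 CPM in the KO libraries, and Fbxw7, which targets cyclin E, had 33.9 and 36.4 CPM in the WT libraries against 25.4 and 33.4 CPM in the KO libraries.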

How the data were processed

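RNA was prepared with RNAqueous reagents and sequenced from Ion Total RNA-Seq libraries, per the labels' protocols. STAR, Partek and mm39 are named, without versions, in the submitters' processing notes. The authors deposited 1 table per library of 29342 transcripts in CPM; each column sums to 1000000, from which the unit was inferred. Transcript lengths were deposited beside them. The commonest low values are multiples of the CPM of 1 read, and estimated reads are CPM divided by it. Within 0.01 reads, 20.5% to 45.6% of genes with any signal were whole, so no count model was run. Values were summed per symbol (10 symbols kept apart by chromosome), and genes averaging 1 CPM or more went into limma 3.58.1 (R 4.3.3). The fit used log2(CPM + 1) and a trended prior variance, two-sided, BH-adjusted over 17654 genes and called under 0.05. Exact conditional intervals are 95%. The family, its 8 role classes and the other lists were chosen with earlier results of these data known. Named genes are, per class, up to 4 of the highest mean CPM and 3 of the smallest p, and 2 per other list. Tests were checked on simulated data. Settings varied were the pseudocount (0.1 or 5 CPM), the filter (none or 5 CPM), TMM factors, quantile normalization, removal of Rn18s, no trend, a replicate block, thinning to equal depth, an adjusted p under 0.1, and each library left out. Figures used matplotlib 3.10.9. Of the listed genes outside the family, Wee2, Cdk2ap1, Skp1a, Cd68, Lcn5 and Lcn8 are not analysed here.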

Additional observations from a re-analysis of the deposited data

How the results depend on the processing

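The family's count of 0 was the same under the pseudocounts, filters, TMM factors, quantile normalization, removal of Rn18s, no trend, thinning, the looser threshold and either WT library left out. With libraries left out it ranged from 0 to 2, that of the other cell cycle genes from 0 to 5 and that of all genes from 0 to 954. All genes called were 0 with a pseudocount of 0.1 CPM, without the trend or after thinning. With the replicate number as a block, 24 genes and 0 of the family were called. The labels do not state whether equal numbers pair the samples. Deviations of same-numbered libraries correlated at -0.006 over genes. Counting error at this depth lowers such a value, so it cannot exclude pairing. Summed family CPM in KO over WT stayed between 0.935 and 1.045.

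Of 522 values for 35 named genes under alternatives, 500 left direction and call as they were, 20 changed sign and 2 passed the threshold with a KO library left out, Ccng1 (-1.98) and Plk2 (-2.09). After thinning the log2 fold change was 0.09 for Aurkb, 0.01 for Ccnb2 and 0.35 for Ccno; the cause was not tested. With libraries left out, ranges that cross 0 were -0.35 to 0.04 for Aurkb, -0.10 to 0.05 for Ccnb2, -0.46 to 0.34 for Ccnd1, -0.07 to 0.49 for Ccnd3, -0.34 to 0.49 for Ccnf, -1.98 to 0.02 for Ccng1 and -0.20 to 0.03 for Ccnk. The same held for Cdc25a (-0.30 to 0.17), Cdc25b (-0.59 to 0.71), Cdk13 (-0.06 to 0.14), Cdk19 (-0.05 to 0.22), Cks2 (-0.12 to 0.36), Plk2 (-2.09 to 0.06) and Plk3 (-0.16 to 1.04). The number of family genes at an unadjusted p under 0.05 was 3, 0 without either WT library, 7 without KO replicate 1 and 8 without KO replicate 2; after thinning it was Ccnt1, Plk1 and Cdk18, without Cdk14. This number was 2, Cdk14 and Plk1, with a pseudocount of 0.1 CPM and again with no filter. Without the trend it was also 2, Ccnt2 and Cdk14. Depth limits the low genes most: the median SE was 0.43 under a mean of 20 CPM and 0.21 from there up.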
